A study of Mus musculus with 28 samples.

Results

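The 44 genes described here belong to the integrated stress response and the unfolded protein response, and were chosen by name: every array probe whose gene symbol was one of the 44 was taken. A probe under its own name was found for 42 of them, 83 probes in all out of 45281 on the array. A gene was tested when at least 1 of its probes had a detection p-value below 0.01 on at least 3 arrays, which left 38 of the 44 genes, among 9951 genes in the whole series. Pycr1 and Slc7a5 had no probe named here, and Psph, Cth, Slc7a11 and Slc7a1 had probes that did not pass. The 38 genes were 9 Atf4-type regulators and effectors (of 9), 6 enzymes of amino acid and one-carbon synthesis (of 9), 4 amino acid transporters (of 7), 8 cytosolic tRNA synthetases (of 8) and 11 endoplasmic reticulum genes (of 11).

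In the integrated stress response, sensor kinases that read out amino acid shortage, misfolded protein, viral RNA or lack of haem phosphorylate the initiation factor eIF2, which slows general translation but favours translation of the transcription factor Atf4. Atf4 and its partners then switch on genes for amino acid synthesis, import and tRNA charging, as well as the feedback regulators Trib3, Ddit3 and Ppp1r15a. The unfolded protein response of the endoplasmic reticulum shares the Perk branch with it and adds Atf6 and Ire1 with spliced Xbp1, which raise chaperones such as Hspa5 and factors that send misfolded proteins to degradation. The extraembryonic endoderm secretes large amounts of basement membrane protein, which is folded in this compartment.

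The cells were Xen-eyfp, a mouse line of extraembryonic endoderm stem cells, and each sample was 200 ng of total RNA taken after 96 h and hybridised to 1 Illumina MouseWG-6 v2 array. The groups were Nodal with SB431542 (3 arrays), Cripto with SB431542 (5), SB431542 alone (5), Nodal (5), Cripto (5) and Media, the untreated control (5). Nodal was recombinant protein at 50 ng/ml and Cripto recombinant protein at 100 ng/ml, with the same doses beside the inhibitor. Nodal is a secreted TGF-beta family ligand, Cripto its EGF-CFC co-receptor, and SB431542 an inhibitor of the receptor kinase Alk4. The dose of the inhibitor was not given in the sources used here. All groups came from 1 cell line, and the labels do not say whether the arrays of a group came from separate cultures, so the p-values reflect only the spread of these arrays, which may be technical.

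Promoters of the members show which of them carry the letters that the Atf4 and Atf6 branches are known to read. The table of RefSeq promoters (GRCm38.p6, 250 bases before the start to 50 after it) held 38 of the 44 genes. The CARE letters TGATGNAA, a match for Atf4 and its dimer partners, were found on either strand in 11 of these 38 and in 3.97% of 32851 promoters. The ERSE letters, CCAAT and CCACG with any 9 bases between them, read by Atf6 with NF-Y, were found in 4 of the 38 and in 0.119% of all promoters. The shorter ERSE-II letters, ATTGG and CCACG with any 1 base between them, were found in Herpud1 and in 0.0365% of all promoters. The letters TGACGTGG, related to Xbp1 binding, were found in none of the 38 and in 0.676% of all. The CARE and ERSE-II matches in Herpud1 did not overlap. A match describes these letters in this window and shows no binding. Since the genes were chosen by name as members of these pathways, the shares describe the list and test nothing.

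Windows with the CARE letters are shown for the 4 genes whose response to Nodal and Cripto is described most closely below, with the match in capitals on the strand of the transcript.
Chac1, chr2:119351024-119351081, plus strand: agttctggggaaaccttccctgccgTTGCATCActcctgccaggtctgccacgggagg
Atf3, chr1:191183411-191183468, minus strand: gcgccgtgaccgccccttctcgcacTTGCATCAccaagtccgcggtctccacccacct
Asns, chr6:7693210-7693257, minus strand: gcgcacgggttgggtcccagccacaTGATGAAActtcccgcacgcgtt
Herpud1, with the ERSE-II match as the second stretch in capitals, chr8:94386292-94386412, plus strand: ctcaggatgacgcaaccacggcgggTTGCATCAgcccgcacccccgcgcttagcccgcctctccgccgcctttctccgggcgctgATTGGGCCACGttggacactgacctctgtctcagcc
The other genes with these letters were Aars, Gars, Iars, Pycr1, Slc1a4, Slc7a11 and Trib3.

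The 4 genes with the ERSE letters were endoplasmic reticulum chaperones or their companions, shown because their levels parted under Cripto with the inhibitor.
Hspa5, chr2:34772000-34772068, plus strand: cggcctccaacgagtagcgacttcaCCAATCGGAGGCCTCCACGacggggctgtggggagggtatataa
Creld2, chr15:88819495-88819563, plus strand: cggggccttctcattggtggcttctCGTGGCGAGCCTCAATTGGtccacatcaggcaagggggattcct
Calr, chr8:84847050-84847118, minus strand: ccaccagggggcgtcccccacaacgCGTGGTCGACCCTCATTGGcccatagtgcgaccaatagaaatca
Hsp90b1, with 2 matches, chr10:86705508-86705681, minus strand: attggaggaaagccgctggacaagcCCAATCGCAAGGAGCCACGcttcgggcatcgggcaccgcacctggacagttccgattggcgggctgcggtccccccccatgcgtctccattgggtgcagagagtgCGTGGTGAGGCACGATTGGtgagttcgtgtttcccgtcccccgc

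All 11 primitive endoderm markers (among them Gata6, Sox17 and Lama1) were detected on all 28 arrays, with mean levels of 8.88 to 15.33 on the log2 scale, in keeping with the label of the cells. The epiblast markers Nanog, Sox2 and Tdgf1 were detected on 0 arrays and Esrrb on 1, but Klf4 was detected on 28, Pou5f1 on 26 and Zfp42 on 21. Of 7 fibroblast markers, 6 did not pass the detection filter (the exception was Twist1, detected on 5 arrays). Array brightness moved with the groups: the median of the mean signals was 519 for Nodal with SB431542, 806 for Cripto with SB431542, 496 for SB431542, 723 for Nodal, 686 for Cripto and 521 for Media. Marker levels moved too, given here as sums that follow mainly the brightest genes. Among the endoderm markers Lama1, Sparc and Col4a1 had mean log2 levels of 15.33, 15.21 and 15.02, against 8.88 for Gata4 and 9.44 for Foxa2. Among the epiblast markers Klf4 had 10.83, against 6.82 for Pou5f1 and 6.25 for Zfp42. The sums therefore do not show how the dimmer markers moved. The summed linear level of the endoderm markers was 151000 to 175000 on Nodal and 145000 to 162000 on Cripto arrays, against 181000 to 200000 on Media arrays, and that of the 3 epiblast markers past the filter (Pou5f1, Zfp42 and Klf4) was 1340 to 1840 and 1000 to 1620, against 2820 to 3960. The 2 trophoblast markers past the filter, Cdx2 and Krt7, were detected on 10 and 14 arrays, with a sum of 64.3 to 126 and 147 to 243, against 59.4 to 80.5. In the inhibitor comparisons the endoderm sum was 213000 to 222000 with Nodal and SB431542 and 134000 to 152000 with Cripto and SB431542, against 182000 to 207000 with SB431542. The epiblast sum was 2840 to 3500 and 1040 to 1420, against 2860 to 3590, and the trophoblast sum 54.1 to 85.7 and 187 to 293, against 47.2 to 78. The part of brightness and of these markers in the results below was not tested, beyond the fits with brightness as a covariate that are given with the counts. In such bulk samples a smaller share of cells with a transcript and less of it per cell cannot be told apart.

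Nodal and Cripto both shifted many of the 38 genes, but so did they all genes: 21 of 38 were called under Nodal (16 higher, 5 lower), a share of 55.3% beside 57.6% of all genes tested (28.7% higher, 28.9% lower), and 27 of 38 under Cripto (14 higher, 13 lower), 71.1% beside 64.5% (32% higher, 32.5% lower). A call is an adjusted p below 0.05 from limma over all 9951 genes, two-sided, with the BeadChip as a block. The members' median log2 change was 0.15 under Nodal and -0.08 under Cripto, where the median of all genes was 0.01 under each. Direction depended on the scaling. When the arrays were centred on their medians instead of quantile normalised, the median of all genes moved to 0.45 under Nodal and 0.44 under Cripto, and the members split into 29 higher and 2 lower under Nodal and 23 higher and 4 lower under Cripto. With array brightness as a covariate the splits were 16 to 4 and 12 to 8. The groups did not overlap for 7 members under Nodal, beside 25.9% of all genes, and for 13 under Cripto, beside 37.8%.

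**Figure D1:**
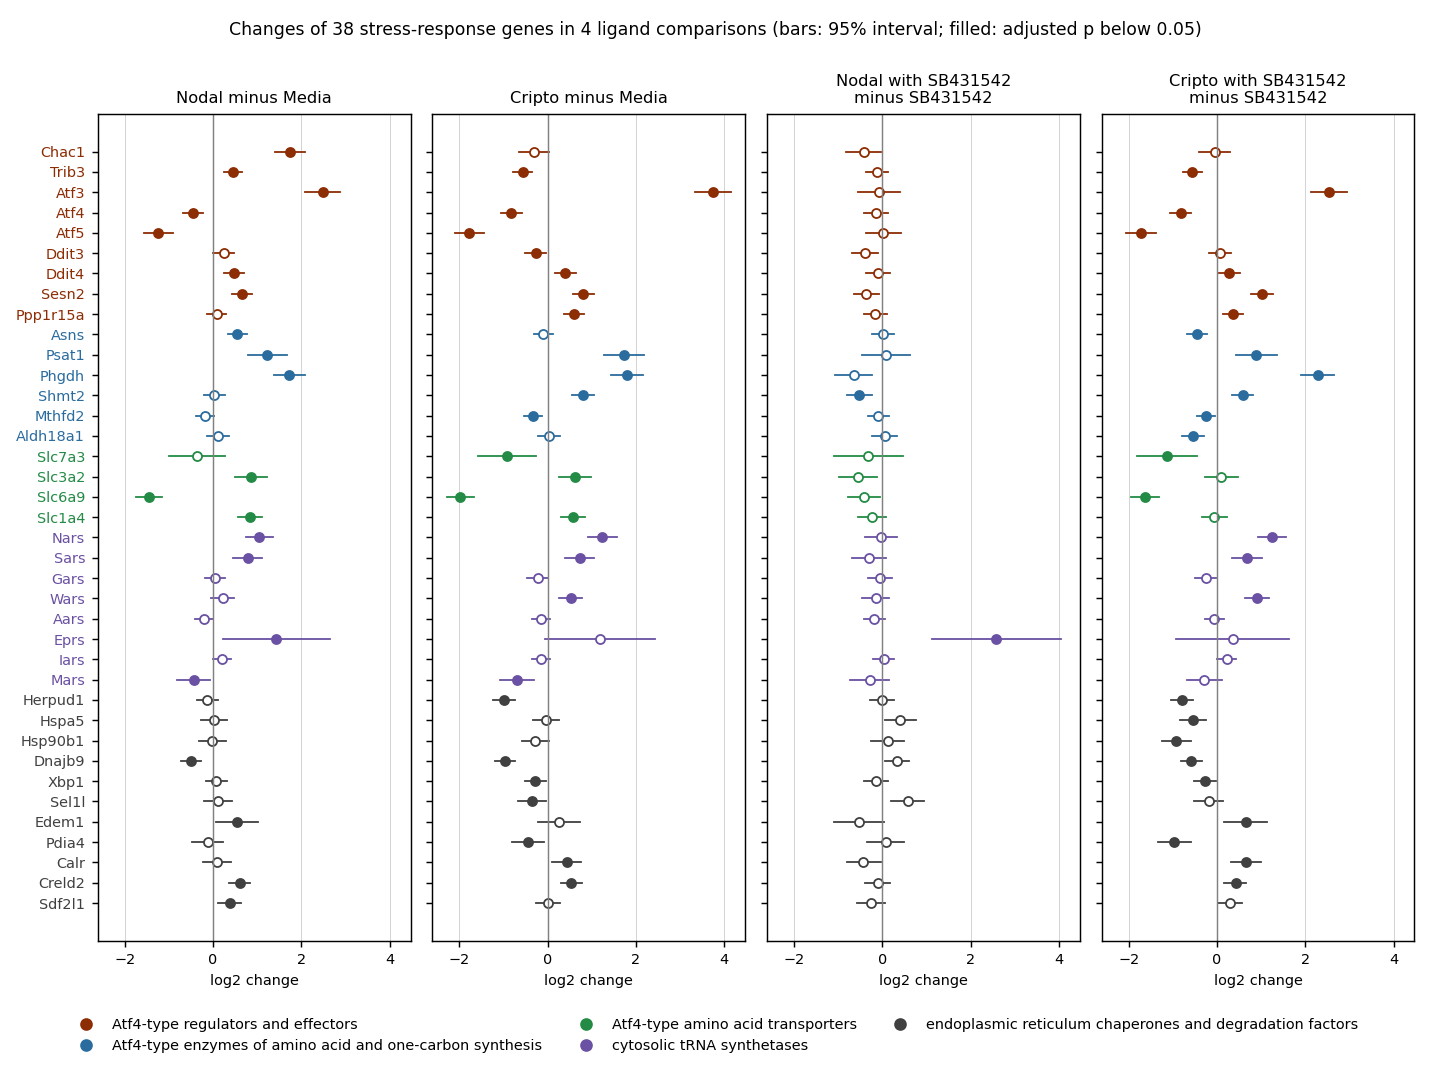
Log2 change of each of the 38 genes (x axis, with 95% interval) in 4 ligand comparisons, genes grouped by role and coloured accordingly; filled points passed the test. Atf3, Phgdh, Psat1 and Nars lie to the right and Atf5 and Slc6a9 to the left in every panel but that of Nodal with SB431542, where 2 points are filled.

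Among the regulators, Atf3 rose and Atf5 fell under both ligands, while Chac1, and Trib3 by its brightest probe, parted. Under Nodal 5 of the 9 were higher and 2 lower (median log2 change 0.45), and under Cripto 4 were higher and 4 lower (median -0.27). These are 77.8% and 88.9% called, beside 57.6% and 64.5% of all genes. Atf3, a transcription factor induced by many stresses, had log2 levels of 8.82, 8.26, 8.46, 8.10 and 8.57 on Nodal arrays and 9.52, 9.63, 9.64, 9.75 and 9.87 on Cripto arrays, against 5.61, 5.57, 5.92, 6.39 and 6.32 on Media arrays. All 3 groups stood apart from each other. The Media arrays lay near background: the gene was detected on 4 of the 5, and the lowest level of a detected probe there was 5.73, 5.56, 5.83, 6.18 and 5.88, so the folds rest on a reference close to that limit. The log2 change was 2.48 ± 0.19 under Nodal (SE; 5.57-fold, adjusted p = 6.81e-10) and 3.74 ± 0.19 under Cripto (13.4-fold, adjusted p = 1.08e-12). The size depended on the background correction: it was 1.33 and 2.34 without it, and 0.96 and 1.83 on the authors' deposited values, called in each. With median centring the regulators split into 7 higher and 1 lower under Nodal and 5 and 1 under Cripto.

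Chac1, which breaks down glutathione and is a known Atf4 target, had 10.11, 9.45, 9.32, 9.69 and 9.53 on Nodal arrays and 8.06, 6.87, 7.63, 7.66 and 7.71 on Cripto arrays, against 7.93, 7.64, 7.92, 8.04 and 7.87 on Media arrays. Every Nodal array lay above every other array, and the Cripto arrays overlapped the Media arrays. Its log2 change was 1.74 ± 0.16 under Nodal (3.35-fold, adjusted p = 1.12e-08) and -0.31 ± 0.16 under Cripto (adjusted p = 0.101), the first being 1.11 on the deposited values. By its brightest probe Trib3, a pseudokinase that restrains the response, was called in opposite directions. It had 0.45 ± 0.10 under Nodal (adjusted p = 0.000661) and -0.57 ± 0.10 under Cripto (adjusted p = 5.28e-05). With median centring the second value was 0.03. The other Trib3 probes, detected on 6 and 9 arrays, read 0.58 and 1.01 under Nodal. Under Cripto they read 0.24 (adjusted p = 0.207) and 0.33 (adjusted p = 0.0687).

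Atf5, an Atf4 relative that is translated in the same way, had 10.21, 9.62, 9.61, 8.61 and 9.03 on Nodal arrays and 9.37, 8.75, 9.03, 8.73 and 8.5 on Cripto arrays, against 10.73, 10.97, 10.89, 10.19 and 10.5 on Media arrays. The highest Nodal array reached the lowest Media array, and the Cripto arrays all lay below Media. The log2 change was -1.24 ± 0.16 under Nodal (2.36-fold lower, adjusted p = 1.04e-06) and -1.78 ± 0.16 under Cripto (3.43-fold lower, adjusted p = 5.68e-09), or -0.64 and -1.18 with median centring, both called. Atf4 itself fell by 0.46 ± 0.11 under Nodal (adjusted p = 0.00126) and by 0.83 ± 0.11 under Cripto (adjusted p = 2.11e-06), which became 0.05 and -0.30 with median centring, neither called. The arrays measure the Atf4 transcript, and the protein, which is regulated in translation, was not measured.

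Sesn2, a leucine sensor that restrains mTOR, had 7.94, 8.61, 8.47, 8.88 and 8.96 on Nodal arrays and 8.21, 8.69, 8.53, 8.99 and 9.17 on Cripto arrays, against 7.62, 7.75, 7.75, 8.51 and 7.93 on Media arrays. Both ligand groups overlapped Media through 1 Media array at 8.51. It rose by 0.66 ± 0.11 (adjusted p = 4.29e-05) and 0.80 ± 0.11 (adjusted p = 3.56e-06). Ddit4, another brake on mTOR, rose by 0.48 ± 0.11 under Nodal (adjusted p = 0.000972) and 0.40 ± 0.11 under Cripto (adjusted p = 0.00435). On BeadChips 1 to 4 the Ddit4 values were 0.38 and 0.34, neither called. With brightness as a covariate the Cripto value was 0.3 and not called. Ppp1r15a, the phosphatase subunit that restores eIF2, was called under Cripto (0.60 ± 0.11, adjusted p = 4.74e-05), with 0.09 ± 0.10 under Nodal (adjusted p = 0.48). Ddit3, the pro-death factor Chop, had 0.24 ± 0.11 under Nodal (adjusted p = 0.0768) and was lower under Cripto (-0.27 ± 0.12, adjusted p = 0.0459), a call that 17 of the 28 fits without 1 array lost and that turned to 0.37 with median centring.

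**Figure D2:**
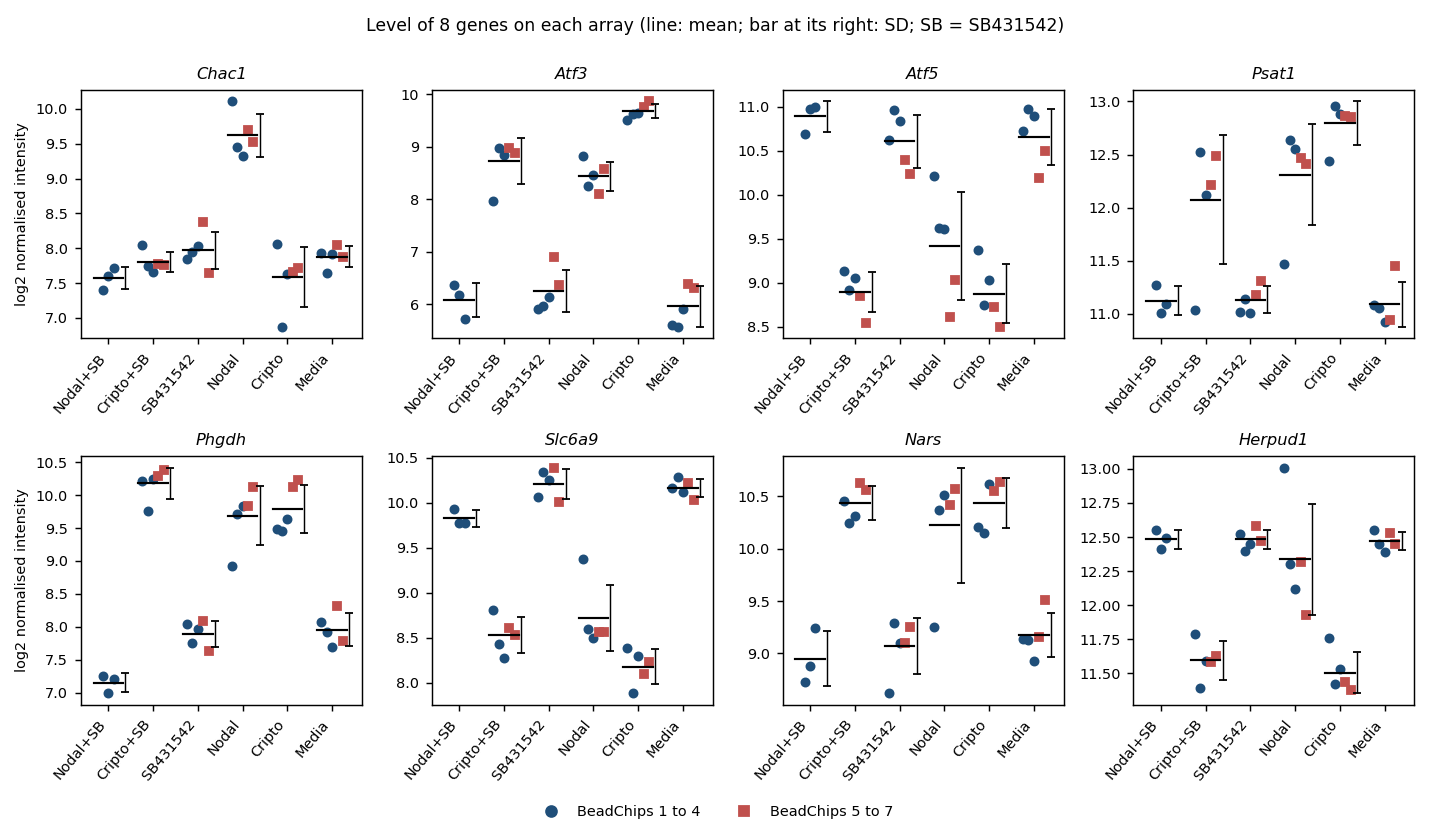
Log2 normalised intensity of 8 genes on each array (y axis), by group, with the mean as a line and the SD beside it; circles are BeadChips 1 to 4, squares BeadChips 5 to 7. Chac1 is high on the 5 Nodal arrays alone (9.32 to 10.11), and replicate 1 of Nodal lies towards Media in Psat1, Nars and Slc6a9.

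Of the 6 synthesis enzymes, 3 were higher (Phgdh, Psat1 and Asns) and 0 lower under Nodal. Under Cripto 3 were higher (Phgdh, Psat1 and Shmt2) and 1 lower. The median log2 changes were 0.33 and 0.41, and with median centring the split was 5 and 0 under each. The share called was 50% and 66.7%, beside 57.6% and 64.5% of all genes. Phgdh, the first enzyme of serine synthesis, had 8.93, 9.72, 9.83, 9.84 and 10.13 on Nodal arrays and 9.49, 9.45, 9.64, 10.12 and 10.23 on Cripto arrays, against 8.08, 7.92, 7.69, 8.31 and 7.79 on Media arrays. Both ligand groups stood above Media without overlap. It rose by 1.73 ± 0.17 under Nodal (3.32-fold, adjusted p = 3.1e-08) and 1.79 ± 0.17 under Cripto (3.46-fold, adjusted p = 1.75e-08); the Nodal value was 1.14 on the deposited values.

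Psat1, the aminotransferase of the next step, had 11.47, 12.64, 12.55, 12.47 and 12.41 on Nodal arrays and 12.44, 12.96, 12.88, 12.86 and 12.85 on Cripto arrays, against 11.08, 11.05, 10.92, 10.94 and 11.45 on Media arrays. The lowest Nodal array exceeded the highest Media array by a hair, the Cripto arrays clearly. It rose by 1.22 ± 0.21 under Nodal (2.33-fold, adjusted p = 5.67e-05) and 1.73 ± 0.22 under Cripto (3.31-fold, adjusted p = 7.22e-07). The last enzyme of the pathway, Psph, was not past the filter.

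Asns, which makes asparagine, had 12.67, 12.18, 12.19, 11.93 and 12 on Nodal arrays and 11.75, 11.75, 11.72, 11.23 and 11.30 on Cripto arrays, against 11.72, 11.70, 11.62, 11.51 and 11.68 on Media arrays. The Nodal arrays all lay above the rest, and Cripto overlapped Media. Its log2 change was 0.55 ± 0.10 under Nodal (adjusted p = 0.00011) and -0.10 ± 0.10 under Cripto (adjusted p = 0.394), where its other 2 probes read 0.68 and 0.77 with adjusted p of 1.72e-05 and 3.3e-05. Shmt2, which feeds serine carbon into mitochondrial folate, had 0.02 ± 0.11 under Nodal (adjusted p = 0.882) and 0.80 ± 0.11 under Cripto (adjusted p = 3.59e-06), while its second probe read 1.37 under Nodal (adjusted p = 0.000185). Mthfd2, the next mitochondrial folate enzyme, had -0.19 ± 0.10 under Nodal (adjusted p = 0.102) and was lower under Cripto (-0.33 ± 0.10, adjusted p = 0.00588), though its second probe read 0.43. Aldh18a1, which starts proline synthesis, had 0.11 ± 0.12 and 0.02 ± 0.12.

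The 4 transporters moved in opposite directions (2 higher and 1 lower under Nodal, 2 and 2 under Cripto). These are 75% and 100% called, beside 57.6% and 64.5% of all genes. Slc6a9, the glycine transporter GlyT1, had 9.37, 8.60, 8.49, 8.56 and 8.56 on Nodal arrays and 8.38, 7.88, 8.30, 8.10 and 8.23 on Cripto arrays, against 10.16, 10.29, 10.12, 10.22 and 10.03 on Media arrays. No array of either ligand reached Media. It fell by 1.45 ± 0.14 under Nodal (2.73-fold lower, adjusted p = 3.34e-08) and by 1.99 ± 0.15 under Cripto (3.97-fold lower, adjusted p = 2.9e-10), the first being -0.85 with median centring. Slc1a4, a carrier of alanine, serine and cysteine, rose by 0.84 ± 0.13 (adjusted p = 1.32e-05) and 0.57 ± 0.13 (adjusted p = 0.000785).

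Slc7a3, an importer of arginine and lysine, was near background, with 7.32, 4.93, 4.89, 6.12 and 4.92 on Nodal arrays and 5.17, 4.89, 5.29, 5.03 and 5.23 on Cripto arrays, against 6.32, 6, 5.75, 5.71 and 6.25 on Media arrays. It was detected on 1 of 5 Nodal, 0 of 5 Cripto and 3 of 5 Media arrays. The fitted fall under Cripto was -0.92 ± 0.32 (adjusted p = 0.0151). With the Cripto arrays raised to their detection limits the means differed 1.06-fold. This is no firm minimum, since the Media mean includes arrays without detection. Without replicate 5 of Media the fitted value was -0.79 and on the deposited values -0.19, neither called. On BeadChips 1 to 4 it was -0.99 and with brightness as a covariate -0.71, also not called. Slc3a2, the heavy chain shared by several transporters, was called higher under both (0.85 ± 0.17, adjusted p = 0.000229, and 0.62 ± 0.17, adjusted p = 0.00385; on BeadChips 1 to 4 they were 0.50 and 0.34, the second not called), in levels that differed far more between BeadChips than between groups, as described with Hspa5.

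Of the 8 tRNA synthetases, which charge tRNAs with their amino acids, 3 were higher and 1 lower under each ligand. Their median log2 changes were 0.21 under Nodal and 0.19 under Cripto, and with median centring the split was 6 and 0 under each. The share called was 50% under each, below the 57.6% and 64.5% of all genes. Nars, for asparagine, had 9.25, 10.37, 10.51, 10.42 and 10.57 on Nodal arrays and 10.21, 10.15, 10.62, 10.55 and 10.64 on Cripto arrays, against 9.14, 9.13, 8.93, 9.16 and 9.51 on Media arrays. Apart from replicate 1 of Nodal, which lay among the Media arrays, the ligand arrays were higher. It rose by 1.05 ± 0.15 under Nodal (2.07-fold, adjusted p = 4.45e-06) and 1.24 ± 0.15 under Cripto (2.36-fold, adjusted p = 4.61e-07). Sars, for serine, rose by 0.78 ± 0.15 (adjusted p = 0.00023) and 0.72 ± 0.16 (adjusted p = 0.000459). On BeadChips 1 to 4 its Nodal value was 0.57 and not called. The second Sars probe read 0.36 under Nodal (adjusted p = 0.0266) and -0.07 under Cripto (adjusted p = 0.692). By its brightest probe Mars, for methionine, was lower under Nodal (-0.44 ± 0.18, adjusted p = 0.0412) and Cripto (-0.70 ± 0.18, adjusted p = 0.00226). With median centring these were 0.16 and -0.10, neither called, and the Nodal call was also lost in 8 of the 28 fits without 1 array. The second probe of Mars went the other way, with 0.27 under Nodal (adjusted p = 0.0645) and 0.45 under Cripto (adjusted p = 0.00416). The mean of its probes gave -0.08 and -0.13, neither called.

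Eprs, for glutamate and proline, varied widely within groups, with 6.17, 7.84, 9.23, 9.73 and 9.58 on Nodal arrays and 6.92, 10.03, 7.84, 8.5 and 7.97 on Cripto arrays, against 6.38, 5.87, 6.02, 7.4 and 9.71 on Media arrays. The ranges overlapped almost wholly. Its log2 change was 1.43 ± 0.58 under Nodal (adjusted p = 0.0413) and 1.19 ± 0.60 under Cripto (adjusted p = 0.0888). The Nodal call was lost when replicate 2, 3 or 4 of Media or replicate 3, 4 or 5 of Nodal was left out, with values of 1.02 to 1.42. It was 0.35 with array brightness as a covariate and 0.67 on the deposited values, neither called. Wars, for tryptophan, was higher under Cripto (0.52 ± 0.13, adjusted p = 0.00116), with 0.22 ± 0.12 under Nodal (adjusted p = 0.136). Gars, Aars and Iars, for glycine, alanine and isoleucine, were not called, with log2 changes of -0.22 to 0.20.

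The endoplasmic reticulum genes did not rise as a group. Under Nodal 3 of 11 were higher and 1 lower (36.4% called, beside 57.6% of all genes), with a median log2 change of 0.07. Under Cripto 2 were higher and 5 lower (63.6% called, beside 64.5%), with a median of -0.28. With median centring, where the median of all genes was 0.45 and 0.44, the splits were 9 to 0 and 5 to 1. The medians of the 11 genes were then 0.53 and 0.23. Herpud1, which recruits the degradation machinery, had 13.01, 12.30, 12.12, 12.32 and 11.93 on Nodal arrays and 11.76, 11.42, 11.53, 11.44 and 11.38 on Cripto arrays, against 12.55, 12.45, 12.39, 12.53 and 12.45 on Media arrays. Cripto lay wholly below Media, and the Nodal arrays fell on both sides of it. The log2 change was -0.14 ± 0.11 under Nodal (adjusted p = 0.309) and -0.99 ± 0.12 under Cripto (adjusted p = 2.25e-07).

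Dnajb9, a co-chaperone of Hspa5, fell by 0.50 ± 0.11 under Nodal (adjusted p = 0.000374) and by 0.97 ± 0.11 under Cripto (adjusted p = 1.22e-07), or 0.11 and -0.36 with median centring, neither called. Creld2, a secreted folding factor, rose by 0.60 ± 0.11 (adjusted p = 0.000123) and 0.53 ± 0.12 (adjusted p = 0.000412). These 2 genes are both known to respond to misfolded protein, and moved in opposite directions under quantile normalisation. With median centring both were above 0 under Nodal (0.11 for Dnajb9 and 1.15 for Creld2). Calr, the chaperone calreticulin, was higher under Cripto (0.43 ± 0.16, adjusted p = 0.0231), and Xbp1, Sel1l and Pdia4 were lower there by 0.28 to 0.45 with adjusted p of 0.0276 to 0.0427. The calls of Xbp1, Sel1l and Pdia4 were lost in 7, 11 and 6 of the 28 fits without 1 array, and with median centring all 3 were above 0 (0.10 to 0.23). That of Calr was lost without replicate 2 of Cripto and replicate 4 or 5 of Media. Under Nodal, Edem1 (0.54 ± 0.23, adjusted p = 0.0459) and Sdf2l1 (0.38 ± 0.12, adjusted p = 0.0136) were higher, the first losing its call in 15 of the 28 fits. The main chaperones Hspa5 and Hsp90b1 were not called under either ligand, with log2 changes of 0.02 ± 0.14 and -0.02 ± 0.15 under Nodal and -0.05 ± 0.14 and -0.28 ± 0.15 under Cripto.

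SB431542 alone changed none of the 38 genes by limma's adjusted test, nor any of the 9951 (0%). At an unadjusted p below 0.05 limma counted 1 member and 270 genes. The members' log2 changes ran from -0.19 to 0.59, the highest being Slc3a2, at 7.34 and 7.08 on the SB431542 arrays of BeadChips 5 to 7, against 6.04 and 6.13 on the Media arrays there. On BeadChips 1 to 4 the groups overlapped. 0 members were without overlap, beside 0.201% of all genes.

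With SB431542 present, few of the 38 genes were called for Nodal against the inhibitor alone. 1 was called higher (Eprs) and 1 lower (Shmt2), beside 3.68% of all genes called (3.2% higher, 0.482% lower), and the median log2 change was -0.13. At an unadjusted p below 0.05 limma counted 12 members and 2038 of 9951 genes, and the log2 changes ran from -0.65 to 2.58. Atf3 had 6.36, 6.18 and 5.72 on arrays of Nodal with SB431542, against 5.92, 5.97, 6.14, 6.91 and 6.36 on SB431542 arrays, a log2 change of -0.08 ± 0.23 (adjusted p = 0.856). Chac1 had 7.4, 7.6 and 7.72 with Nodal and SB431542, against 7.84, 7.95, 8.03, 8.37 and 7.65 with SB431542, or -0.42 ± 0.19 (adjusted p = 0.22). Both groups overlapped in both genes. Phgdh had 7.26, 6.99 and 7.21 on arrays of Nodal with SB431542, against 8.05, 7.75, 7.96, 8.09 and 7.63 on SB431542 arrays; these did not overlap, but the change of -0.65 ± 0.20 was not called (adjusted p = 0.0767).

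Sesn2 likewise lay lower without overlap, at 7.45, 7.42 and 7.35 with Nodal and SB431542, against 7.79, 7.81, 7.84, 8.43 and 7.89 with SB431542, and was not called (-0.36 ± 0.13, adjusted p = 0.14). Atf5 had 10.69, 10.98 and 11 with Nodal and SB431542, against 10.62, 10.96, 10.84, 10.39 and 10.24 with SB431542, a change of 0.02 ± 0.19 (adjusted p = 0.953). In all, 10 members did not overlap between these groups, beside 14.3% of all genes, with 3 arrays in the smaller group and all of them on BeadChips 1, 3 and 4. Slc6a9 had 9.93, 9.77 and 9.77 with Nodal and SB431542, against 10.06, 10.34, 10.25, 10.39 and 10.01 with SB431542 (-0.42 ± 0.17, adjusted p = 0.173).

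The calls of this comparison depended on single arrays. Shmt2 had 7.16, 7.07 and 6.84 on arrays of Nodal with SB431542, against 7.71, 7.65, 7.57, 7.80 and 7.65 on SB431542 arrays (-0.52 ± 0.13, adjusted p = 0.0371), and Eprs 9.22, 9.13 and 9.33 with Nodal and SB431542, against 6.30, 6.49, 6.74, 7.13 and 9.67 with SB431542 (2.58 ± 0.70, adjusted p = 0.0454). Eprs overlapped through replicate 5 of SB431542, and its other probes read -0.17 (adjusted p = 0.672) and 0.41 (adjusted p = 0.38). The second probe of Shmt2 read -0.26 (adjusted p = 0.673). Leaving out any of the 3 arrays of Nodal with SB431542 ended both calls, with 0 members called in each of those fits. The count was likewise 0 without replicate 1, 2 or 3 of SB431542 or replicate 4 of Nodal or of Cripto, 4 without replicate 5 of Media, SB431542 or Cripto with SB431542, and 1 without replicate 1, 3 or 4 of Media, 1 or 3 of Cripto, 5 of Nodal, 4 of SB431542 and 1 or 4 of Cripto with SB431542.

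Set against Nodal without the inhibitor, Nodal with SB431542 had 5 members higher and 19 lower, beside 53.6% of all genes called (26% higher, 27.6% lower), and 19 did not overlap, beside 41.6%. With median centring the split was 2 to 23. The log2 difference was -2.40 ± 0.21 for Phgdh (5.27-fold lower, adjusted p = 8.51e-09), -2.29 ± 0.23 for Atf3 (4.9-fold lower, adjusted p = 7.56e-08) and -2.08 ± 0.20 for Chac1 (4.24-fold lower, adjusted p = 2.65e-08), all without overlap. Atf5 (1.23 ± 0.19, adjusted p = 2.16e-05), Slc6a9 (1.10 ± 0.18, adjusted p = 2.77e-05) and Dnajb9 (0.79 ± 0.13, adjusted p = 3.8e-05) were higher. The interaction term, which asks whether the Nodal effect differed with the inhibitor, was called for 20 members, 3 positive and 17 negative, beside 43.9% of all genes (21.5% positive, 22.4% negative); with median centring these were 1 and 21. These were measured against the same control arrays as the Nodal effects above.

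Cripto with SB431542 had 13 members higher and 14 lower against SB431542 alone, 71.1% beside 65.5% of all genes called (31.8% higher, 33.7% lower). The groups did not overlap for 18, beside 42.3% of all genes. The split was 17 higher and 7 lower with median centring, 12 and 13 with brightness as a covariate, where the median of all genes was 0.31 with the centring. The called genes were not all those called for Cripto against Media: Ddit3, Slc3a2, Slc1a4, Mars and Sel1l were called there alone, and Asns, Aldh18a1, Hspa5, Hsp90b1 and Edem1 here alone, differences that the interaction term did not call. Atf3 had 7.97, 8.98, 8.85, 8.98 and 8.88 on arrays of Cripto with SB431542, against 5.92, 5.97, 6.14, 6.91 and 6.36 on SB431542 arrays, and rose by 2.53 ± 0.20 (5.78-fold, adjusted p = 8.12e-10). Phgdh had 10.22, 9.76, 10.24, 10.29 and 10.38 with Cripto and SB431542, against 8.05, 7.75, 7.96, 8.09 and 7.63 with SB431542, and rose by 2.28 ± 0.18 (4.84-fold, adjusted p = 8.12e-10). Both genes stood apart on every array.

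Psat1 had 11.03, 12.52, 12.12, 12.21 and 12.49 with Cripto and SB431542, against 11.02, 11.14, 11.01, 11.18 and 11.31 with SB431542, and rose by 0.89 ± 0.22 (1.85-fold, adjusted p = 0.00164) although replicate 1 lay among the inhibitor arrays. On BeadChips 1 to 4 the Psat1 value was 0.79 and not called. Nars had 10.45, 10.24, 10.31, 10.63 and 10.56 with Cripto and SB431542, against 8.62, 9.29, 9.10, 9.10 and 9.25 with SB431542, and rose by 1.24 ± 0.16 (2.37-fold, adjusted p = 6.44e-07). Sesn2 had 9.14, 8.62, 8.81, 9.36 and 9.17 with Cripto and SB431542, against 7.79, 7.81, 7.84, 8.43 and 7.89 with SB431542, and rose by 1.01 ± 0.12 (2.02-fold, adjusted p = 2.29e-07). The last 2 did not overlap.

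Atf5 had 9.13, 8.92, 9.06, 8.85 and 8.54 with Cripto and SB431542, against 10.62, 10.96, 10.84, 10.39 and 10.24 with SB431542, and fell by 1.72 ± 0.16 (3.29-fold lower, adjusted p = 1.44e-08). Slc6a9 had 8.81, 8.43, 8.27, 8.61 and 8.53 with Cripto and SB431542, against 10.06, 10.34, 10.25, 10.39 and 10.01 with SB431542, and fell by 1.63 ± 0.15 (3.1-fold lower, adjusted p = 8.34e-09). Both were lower on every array. Slc7a3 was detected on 0 of 5 arrays of Cripto with SB431542 and 4 of 5 SB431542 arrays. It had 4.84, 5.04, 4.73, 4.66 and 4.77 with Cripto and SB431542, against 5.88, 6, 5.65, 6.87 and 6.33 with SB431542. The fitted change was -1.13 ± 0.33 (adjusted p = 0.00465), or -0.72 and not called on BeadChips 1 to 4. With the undetected group raised to its detection limits the means differed 1.17-fold, which is no firm minimum either. Chac1 had 8.04, 7.75, 7.66, 7.77 and 7.76 with Cripto and SB431542, against 7.84, 7.95, 8.03, 8.37 and 7.65 with SB431542, and did not pass (-0.05 ± 0.17, adjusted p = 0.795).

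The chaperones parted in this comparison: 3 of the 11 endoplasmic reticulum genes were higher and 6 lower, or 4 and 3 with median centring. Their median log2 change was -0.27, beside -0.06 over all members, and 81.8% were called, beside 65.5% of all genes. Hsp90b1, the folding chaperone of the Hsp90 family in this compartment, had 13.03, 13.43, 12.95, 12.54 and 12.53 with Cripto and SB431542, against 13.99, 13.68, 13.73, 13.56 and 13.83 with SB431542, and fell by 0.92 ± 0.16 (1.89-fold lower, adjusted p = 3.15e-05). Pdia4, a disulfide isomerase, had 10.39, 11.71, 11.97, 12.08 and 12.14 with Cripto and SB431542, against 12.54, 12.53, 12.52, 12.73 and 12.97 with SB431542, and fell by 0.97 ± 0.18 (1.96-fold lower, adjusted p = 7.71e-05). Neither overlapped, and replicate 1 was the lowest in Pdia4. Herpud1 fell by 0.80 ± 0.12 (adjusted p = 5.59e-06) and Hspa5 by 0.54 ± 0.15 (adjusted p = 0.00284). The Hspa5 change was -0.17 with median centring, -0.51 with the BeadChip as a random block and -0.43 without the BeadChip term, none called. Calr (0.65 ± 0.16, adjusted p = 0.00142), Creld2 (0.42 ± 0.12, adjusted p = 0.00407) and Edem1 (0.65 ± 0.24, adjusted p = 0.0215) were higher, that of Edem1 being 0.43 and not called without replicate 5 of SB431542 or of Cripto with SB431542. Of the 4 genes with ERSE letters printed above, 2 were thus higher (Calr and Creld2) and 2 lower (Hspa5 and Hsp90b1), with the limits just given for Hspa5.

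Against Cripto without the inhibitor, Cripto with SB431542 had 0 members higher and 6 lower, beside 8.6% of all genes called (4.22% higher, 4.38% lower), and 2 did not overlap, beside 3.53%. Atf3 was among them, at 7.97, 8.98, 8.85, 8.98 and 8.88 on arrays of Cripto with SB431542, against 9.52, 9.63, 9.64, 9.75 and 9.87 on Cripto arrays. The groups did not overlap, and the log2 difference was -0.94 ± 0.20 (1.92-fold lower, adjusted p = 0.00702). Aldh18a1 (-0.57 ± 0.12, adjusted p = 0.00702), Psat1 (-0.87 ± 0.23, adjusted p = 0.0234), Hsp90b1 (-0.58 ± 0.16, adjusted p = 0.0288), Pdia4 (-0.64 ± 0.18, adjusted p = 0.0339) and Slc1a4 (-0.45 ± 0.14, adjusted p = 0.0454) were the others. This count was 1 without replicate 1 of Cripto with SB431542, 3 without replicate 2 or replicate 3 of Cripto, and 13 without replicate 1 of Nodal. The interaction of Cripto and SB431542 was called for Atf3 alone (-1.21 ± 0.28, adjusted p = 0.0469), beside 0.653% of all genes (0.281% positive, 0.372% negative). It was lost in 22 of the 28 fits without 1 array.

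With the inhibitor present, Nodal and Cripto differed in 29 of the 38 genes, 13 higher and 16 lower with Nodal, beside 64.3% of all genes called (31.7% higher, 32.5% lower). The groups did not overlap for 27, beside 60.6% of all genes. As Nodal with SB431542 minus Cripto with SB431542, Phgdh differed by -2.93 ± 0.21 (7.62-fold lower, adjusted p = 2.74e-10) and Atf3 by -2.62 ± 0.23 (6.13-fold lower, adjusted p = 7e-09), at the levels given above. Atf5 (1.74 ± 0.19, adjusted p = 1.45e-07) and Slc6a9 (1.21 ± 0.18, adjusted p = 5.29e-06) were higher. The split was 9 to 18 with median centring.

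Nodal and Cripto differed most in Chac1. Of the 38 genes, 13 were higher and 3 lower with Nodal than with Cripto, 42.1% beside 25.1% of all genes called (13.6% higher, 11.4% lower), and 7 did not overlap, beside 7.25% of all genes. Chac1 differed by 2.06 ± 0.16 (4.16-fold, adjusted p = 1.29e-07; 1.25 on the deposited values), Trib3 by 1.01 ± 0.10 (2.02-fold, adjusted p = 1.27e-06), Herpud1 by 0.85 ± 0.12 (1.81-fold, adjusted p = 2.7e-05) and Asns by 0.65 ± 0.10 (1.57-fold, adjusted p = 0.000134). None of these 4 overlapped between the ligands. Of the 9 tested genes with CARE letters, 5 were higher with Nodal by their brightest probe (these 4 and Iars) and 1 lower (Atf3). Iars was not called with median centring (0.34), without the BeadChip term (0.33) or with the mean of its probes (0.25). Against Media, the other probes of Asns rose under both ligands (0.99 and 1.14 with Nodal, 0.68 and 0.77 with Cripto). Ddit3 (0.51 ± 0.12, adjusted p = 0.00291), Slc6a9 (0.54 ± 0.15, adjusted p = 0.00999), Atf5 (0.54 ± 0.16, adjusted p = 0.0176) and Dnajb9 (0.47 ± 0.11, adjusted p = 0.00336) were higher with Nodal too. Without replicate 1 of Nodal, Atf5 and Atf4 were 0.37 and 0.23 and no longer called, and Atf5 was also lost without replicate 2 or 5 of Cripto and Atf4 without replicate 4 of Cripto.

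Higher with Cripto were Atf3 (-1.26 ± 0.19, 2.4-fold, adjusted p = 9.04e-05), Shmt2 (-0.78 ± 0.11, 1.72-fold, adjusted p = 6.12e-05) and Ppp1r15a (-0.51 ± 0.11, 1.42-fold, adjusted p = 0.00142), as Nodal minus Cripto. The first 2 did not overlap. Phgdh had -0.06 ± 0.17 (adjusted p = 0.843) with a 95% interval of -0.42 to 0.30, and Nars -0.19 ± 0.15 (adjusted p = 0.393), so that a small difference in either direction remains possible. The count of 16 genes was 8 without the BeadChip term, 8 on BeadChips 1 to 4 and 10 with median centring (7 higher, 3 lower).

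**Figure D3:**
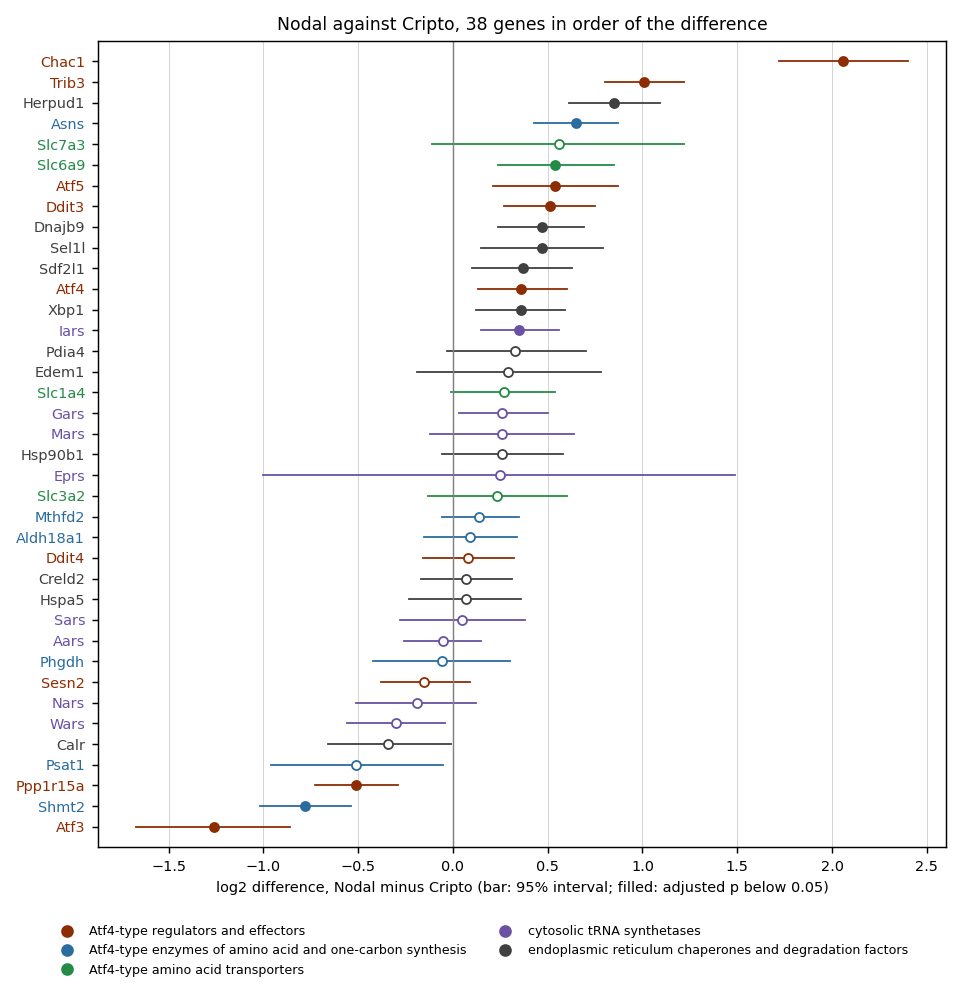
Log2 difference of each of the 38 genes, Nodal minus Cripto (x axis, with 95% interval), in order of its size; colours give the role and filled points passed the test. Chac1 (2.06) and Trib3 (1.01) lead the genes higher with Nodal, and Atf3 (-1.26) those higher with Cripto.

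Hspa5 and Slc3a2 need care, since their levels split by BeadChip. Hspa5, the chaperone BiP, lay between 11.29 and 13.11 on the 18 arrays of BeadChips 1 to 4 and between 6.78 and 8.59 on the 10 arrays of BeadChips 5 to 7, in each of the 5 groups that have both. Slc3a2 lay between 10.45 and 12.24, and between 6.04 and 7.77. Such a gap of over 2 on the log2 scale was found in these 2 members and in 3.12% of all genes. A gap of over 1 was found in 3 members, the third being Eprs at -1.32, and in 7.8% of genes. The typical gap was the same for members and all genes (median 0.30 and 0.31). Nodal with SB431542 was measured on the first set alone, so its mean for Hspa5 cannot be set beside means of the other groups. The fits above compare within BeadChips.

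**Figure D4:**
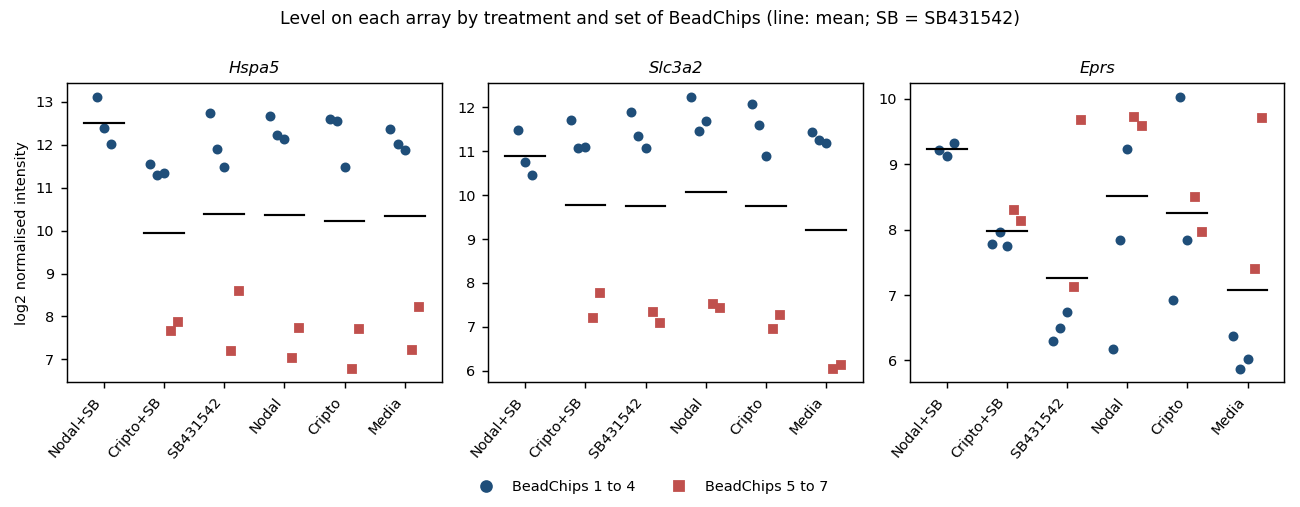
Log2 normalised intensity of Hspa5, Slc3a2 and Eprs on each array (y axis) by group; circles are BeadChips 1 to 4 and squares BeadChips 5 to 7, lines are group means. In Hspa5 the circles lie at 11.29 or above and the squares at 8.59 or below in every group that has both.

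Probes of 1 gene did not always go the same way. Of the 18 members with several probes past the filter, the probes shared a sign in 13 under Nodal and in 11 under Cripto. Shmt2 read 0.02 and 0.80 by its brightest probe, used above, and 1.37 and 2.03 by its other probe. Wars read 0.22 and 0.52, and 0.79 to 1.29 and 1.22 to 1.35 by its other 3 probes. Gars read 0.04 and -0.22, and -1.32 and -2.28 by its other probe. Eprs read 1.43 and 1.19, and 1.21 and 0.97 by the second probe but -0.52 and -0.78 by the dimmest. Against SB431542 alone, these Eprs probes read 2.58, -0.17 and 0.41 with Nodal and SB431542. With Cripto and SB431542 they read 0.36, 1.87 and -0.23. For Asns under Cripto, the brightest probe gave -0.10 and the other 2 gave 0.68 and 0.77. Also under Cripto, the brightest and the second probe gave -0.70 and 0.45 for Mars and 0.72 and -0.07 for Sars. For Trib3 the brightest gave -0.57 there, and its other probes 0.24 and 0.33. Atf4, Herpud1, Dnajb9, Sesn2 and Creld2 had probes that lay on the same side under both ligands. Chac1, Atf3, Atf5, Psat1, Phgdh, Slc6a9 and Nars had 1 probe past the filter each, so that their values have no such check.

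**Figure D5:**
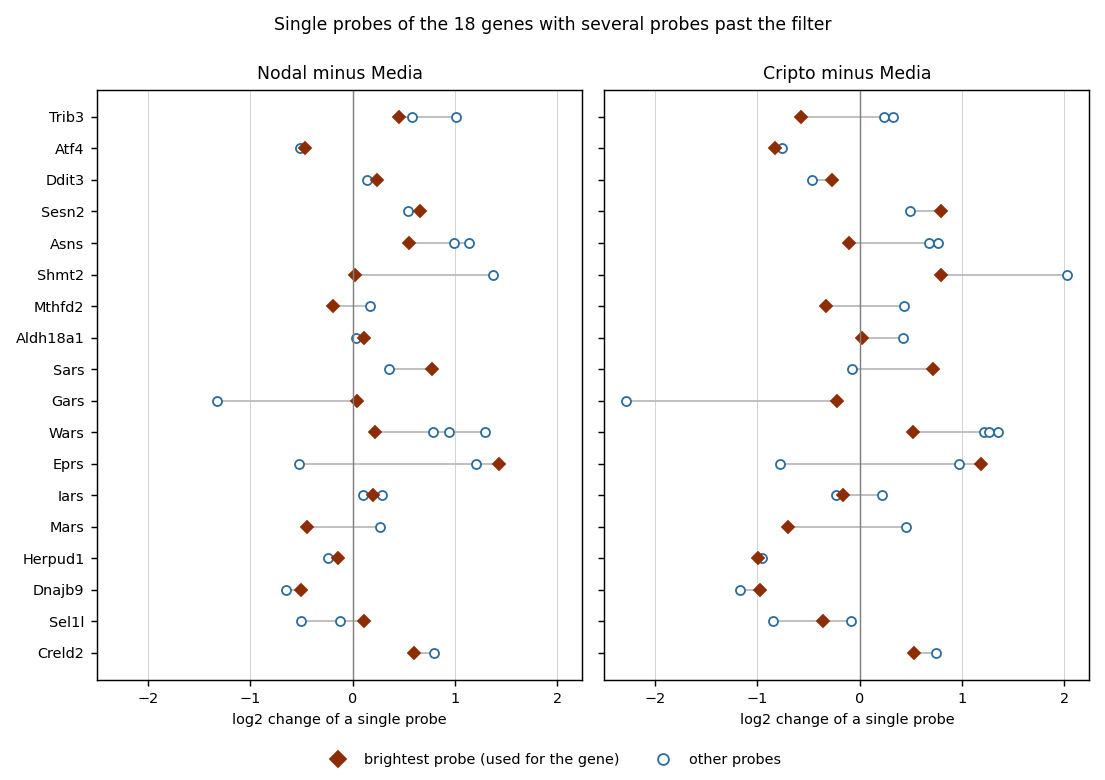
Log2 change of each single probe (x axis) for the 18 genes with several probes past the filter, Nodal and Cripto minus Media; diamonds are the brightest probe of a gene. The probes of Gars and of Shmt2 lie more than 1 apart, and Atf4, Herpud1 and Dnajb9 lie close together.

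Other genes of these pathways give the surroundings, with splits computed under quantile normalisation only. Of 18 measured sensor kinases, eIF2 subunits and related genes, 8 were higher and 5 lower under Nodal and 8 and 6 under Cripto. The share called was 72.2% and 77.8%, beside 57.6% and 64.5% of all genes. Eif2ak2, the kinase that senses double-stranded RNA, fell by 1.37 ± 0.11 under Nodal (adjusted p = 1.94e-09) and by 1.75 ± 0.11 under Cripto (adjusted p = 4.63e-11), and Ern1, the endoplasmic reticulum sensor Ire1, by 1.30 ± 0.12 (adjusted p = 9.96e-09) and 1.47 ± 0.12 (adjusted p = 1.53e-09). Of 18 further Atf4-type targets, 6 were higher and 7 lower under Nodal and 6 and 10 under Cripto (72.2% and 88.9% called). Nupr1, a small stress-induced nuclear protein, fell by 2.40 ± 0.16 (adjusted p = 6.05e-11) and by 4.08 ± 0.16 (adjusted p = 1.36e-14). Shmt1, the cytosolic partner of Shmt2, rose by 1.67 ± 0.10 (adjusted p = 9.44e-12) and 1.80 ± 0.10 (adjusted p = 3.26e-12).

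The 7 other cytosolic synthetases had 4 higher and 1 lower under Nodal and 5 and 1 under Cripto. The share called was 71.4% and 85.7%, beside 57.6% and 64.5% of all genes. Qars, for glutamine, had 0.90 ± 0.13 (adjusted p = 7.6e-06) and 0.82 ± 0.14 (adjusted p = 2.2e-05). Of 14 mitochondrial synthetases, 5 were higher and 4 lower under Nodal and 7 and 1 under Cripto (64.3% and 57.1% called). Mars2, the mitochondrial enzyme for methionine, rose by 0.55 ± 0.12 (adjusted p = 0.000409) and 1.28 ± 0.12 (adjusted p = 8.77e-09). Of 28 further folding and degradation genes of the endoplasmic reticulum, 4 were higher and 12 lower under Nodal (median -0.22). Under Cripto the split was 2 and 15 (median -0.31). These shares called, 57.1% and 60.7%, lay below those of all genes. Fkbp14, a prolyl isomerase that acts on collagen, fell by 2.50 ± 0.15 (adjusted p = 1.32e-11) and by 2.73 ± 0.15 (adjusted p = 3.9e-12), with a change of -3.63 ± 0.16 under Cripto with SB431542 (adjusted p = 6.14e-14).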

How the data were processed

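RNA of 28 samples was read on Illumina MouseWG-6 v2 arrays from 7 BeadChips. The authors deposited, per the file headers, a bead-averaged signal, a linear intensity, and a detection p-value for each probe and array. BeadStudio and lumi are named per the submitters' processing notes, without versions. The authors also deposited processed log2 values with array medians of 7.85 to 7.88, used here as an alternative; how they were made is not given in the sources used here. The signals were corrected with limma 3.58.1 (R 4.3.3, with the package data.table at version 1.17.8; neqc with the background taken from the detection p-values, offset 16), quantile normalised and log2 transformed. The brightest of a gene's probes stood for it, after the detection filter. Levels of different genes are not comparable on this scale. Probes were named from the platform's annotation; 34885 probes have 1 symbol, 18 several and 10378 none. Mars was found under its present symbol, Mars1. Each gene was fitted with group and BeadChip as fixed terms (lmFit, eBayes; 16 residual and 4.19 prior degrees of freedom), with Benjamini-Hochberg adjustment over all genes. Errors are limma standard errors. Alternatives covered background correction, normalisation, the filter, the BeadChip term, array brightness, the choice of probe and each array left out. The procedure was tested on simulated data. Members with a called absolute log2 change of at least 1 in a ligand comparison were given on every array, and of each further list up to 3 genes could be named. The members and lists were chosen with earlier results of these data known. The number of arrays limits the precision.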

Additional observations from a re-analysis of the deposited data

Results flagged for a closer look

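Among the 10 genes given on every array, 50 sets of 5 arrays were searched for a sample far from the others of its group, and 11 were found. For independent arrays chance gives about 1 in 20 sets, a rate that need not hold here, since the search took no account of the BeadChip. Replicate 1 of Nodal lay towards the Media arrays in Psat1 (11.47, others 12.41 to 12.64), Slc6a9 (9.37, others 8.49 to 8.60) and Nars (9.25, others 10.37 to 10.57). Without being flagged, it was also the Nodal array nearest to Media in Phgdh (8.93), Sesn2 (7.94), Atf5 (10.21) and Eprs (6.17). In Chac1 (10.11), Atf3 (8.82) and Slc7a3 (7.32), in contrast, it was the highest Nodal array. Replicate 1 of Cripto with SB431542 stood apart in Atf3 (7.97, others 8.85 to 8.98), Psat1 (11.03, others 12.12 to 12.52) and Chac1 (8.04, others 7.66 to 7.77), and replicate 2 of that group in Phgdh (9.76, others 10.22 to 10.38). The remaining far samples were replicate 1 of Cripto in Psat1 (12.44, others 12.85 to 12.96), replicate 4 of SB431542 in Sesn2 (8.43, others 7.79 to 7.89; on its BeadChip the Media array also read 8.51), replicate 1 of SB431542 in Nars (8.62, others 9.10 to 9.29) and replicate 5 of SB431542 in Eprs (9.67, others 6.30 to 7.13).

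The interaction term of Nodal and SB431542 was called by limma for 8 of the 10 genes, beside 43.9% of all genes. The 10 were chosen for a large ligand effect that this term also holds, so the count is a description. It was -2.16 for Chac1 (adjusted p = 7.63e-07), -2.56 for Atf3 (adjusted p = 7.65e-07), -2.38 for Phgdh (adjusted p = 4.81e-07), -1.14 for Psat1 (adjusted p = 0.009), -1.08 for Nars (adjusted p = 0.000846) and -1.01 for Sesn2 (adjusted p = 9.87e-05). It was 1.26 for Atf5 (adjusted p = 0.000316) and 1.03 for Slc6a9 (adjusted p = 0.000925). The effect of Cripto differed in Atf3, at -1.21 (adjusted p = 0.0469).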

How the results depend on the processing

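Over 41 alternatives, of which 28 each left out 1 array, 93 called log2 changes of single genes gave 3513 values of the same sign and on the same side of the threshold, 280 below it and 18 of the other sign. With median centring the reversed log2 changes were 0.05 for Atf4, 0.16 for Mars and 0.11 for Dnajb9 under Nodal, 0.03 for Trib3, 0.37 for Ddit3, 0.23 for Mthfd2, Xbp1 and Sel1l and 0.10 for Pdia4 under Cripto, and 0.18 for Mthfd2 and 0.10 for Xbp1 under Cripto with SB431542. With the mean of all probes they were 0.00 for Trib3 and 0.05 for Mthfd2 under Cripto, and 0.07 for Asns and 0.09 for Mthfd2 with the inhibitor; by single probes, 0.43 for Mthfd2 in both and 0.62 for Asns.

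The 2 members called for Nodal with SB431542 against SB431542 became 0 with median centring, without the detection filter and without the BeadChip term, 1 with the BeadChip as a random block or the mean of probes, 5 by single probes and 5 without replicate 5 of Media and of SB431542. The 6 called for Cripto with SB431542 against Cripto became 11 without background correction, 3 with median centring, 2 without the BeadChip term and 0 on BeadChips 1 to 4. The 16 called for Nodal against Cripto became 10, 8 and 8 with median centring, without the BeadChip term and on BeadChips 1 to 4. The 1 called for the interaction of Cripto and SB431542 became 0 under median centring, no detection filter, no BeadChip term, the brightness covariate, single probes, BeadChips 1 to 4 and without replicate 5 of Media and of SB431542. The cause was not tested.

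Leaving out single arrays gave 18 to 23 called members for Nodal, 22 to 28 for Cripto, 0 for SB431542, 0 to 4 for Nodal with SB431542, 24 to 28 for Cripto with SB431542, 19 to 26 for Nodal with SB431542 against Nodal, 1 to 13 for Cripto with SB431542 against Cripto, 12 to 19 for Nodal against Cripto, 27 to 30 between the ligands with the inhibitor (29 with all arrays), 19 to 22 for the interaction of Nodal and 0 to 2 for that of Cripto. It ended the calls of Edem1 (15 of 28 arrays, 0.33 to 0.56) and Mars (8 arrays, -0.45 to -0.38) under Nodal and of Ddit3 (17 arrays), Sel1l (11), Xbp1 (7), Pdia4 (6) and Calr (3) under Cripto. No paired analysis was possible by replicate number because the labels number no replicates. Arrays were paired through the BeadChip instead, which is a term of the fit: within single BeadChips the median log2 difference of the members was 0.18 to 0.31 for Nodal minus Media (5 BeadChips) and -0.07 to 0.13 for Cripto minus Media (4 BeadChips).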

Other observations

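Genes of 2 neighbouring stress responses were measured as well, with splits computed under quantile normalisation only. Of 11 cytosolic heat shock genes, 6 were higher and 1 lower under Nodal (median log2 change 0.27; 63.6% called, beside 57.6% of all genes) and 7 and 2 under Cripto (0.55; 81.8%, beside 64.5%). Hspa4, a large cytosolic chaperone, rose by 1.10 ± 0.13 under Nodal (adjusted p = 3.14e-07) and 1.43 ± 0.13 under Cripto (adjusted p = 6.18e-09), and the small heat shock gene Hspb8 fell by 1.34 ± 0.22 (adjusted p = 2.16e-05) and by 1.26 ± 0.22 (adjusted p = 4.36e-05). Of 10 Nrf2 targets, 3 were higher and 1 lower under Nodal (median 0.26; 40% called, below the share of all genes) and 7 and 2 under Cripto (0.74; 90%). Gclm, the modifier subunit that helps make glutathione, rose by 1.05 ± 0.11 under Nodal (adjusted p = 7.19e-08) and 2.32 ± 0.11 under Cripto (adjusted p = 3.72e-13), with a difference of -1.26 ± 0.11, Nodal minus Cripto (adjusted p = 4.33e-07). For Chac1, which breaks glutathione down, that difference was 2.06 ± 0.16.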
